A study of Homo sapiens with 9 samples.

Results

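The genes described here are 41 regulators and target genes of NRF2, of 60676 genes in the count table. They were taken by symbol from a list of known NRF2 pathway genes, a list drawn up with earlier results of these data known. All 41 had a row, and all 41 passed the filter on low counts. RNA was sequenced from A549, a human lung adenocarcinoma cell line known to carry a mutant KEAP1 gene; the counts hold no base sequence, so the mutation was not checked here. The cells were transduced with 1 of 3 lentiviral short hairpin RNA constructs, kept for 2 days, and selected with 1 ng/mL puromycin for another 3 days. The control hairpin shNT has no target, and shLITATS1-1 and shLITATS1-2 are separate hairpins against the long noncoding RNA LITATS1. All cells of all groups thus carried a hairpin construct and had seen puromycin, and all libraries came from this single cell line. Each group held 3 libraries, which the study calls biological replicates. No label ties them to separate transductions, and the p-values cover only the spread among the libraries.

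NRF2, encoded by NFE2L2, is the transcription factor of the oxidative and electrophile stress response. Its adaptor KEAP1 normally binds it and hands it to a CUL3 ubiquitin ligase for degradation. Oxidants or electrophiles modify KEAP1, and NRF2 then accumulates, pairs with a small MAF protein such as MAFG and binds antioxidant response elements near genes for glutathione synthesis, thioredoxin, quinone reduction, NADPH supply, iron storage and drug export. Loss of KEAP1 function, frequent in lung adenocarcinoma, leaves the factor active without stress. NRF2 is controlled largely at the level of the protein, which RNA counts do not show.

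Antioxidant response elements share the core TGACNNNGC, and the sequences below show where that core stands in promoters of these genes. RefSeq promoters on GRCh38.p14, from 250 bases before to 50 bases after the transcription start, were at hand for 30 of the 41 genes. The core was found on either strand in 8 of 30, or 26.7%, against 15.3% of 11289 promoters of tested genes and 13.3% of all 35116 promoters in the table. The AP-1 motif TGANTCA, which can overlap this core, was found in 3 of 30, or 10.0%, against 4.80% and 7.71%. Both motifs overlapped in 2 of 30, in ME1 and PIR, against 0.487% of promoters of tested genes. Each line below gives the strand that holds the core, 5′ to 3′, with the core in capitals and 10 bases on either side.
GCLM (chr1:93909446-93909474, plus strand): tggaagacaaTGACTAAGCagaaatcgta
TXNRD1 (chr12:104215670-104215698, plus strand): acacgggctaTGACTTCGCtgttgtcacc
GPX2 (chr14:64942849-64942877, plus strand): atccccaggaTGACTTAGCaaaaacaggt
CBR1 (chr21:36069855-36069883, minus strand): ccagctagccTGACTTTGCagaacccgca
CYP4F11 (chr19:15935005-15935033, plus strand): cagctcagggTGACACAGCatgggcacag
PGD (chr1:10398853-10398881, minus strand): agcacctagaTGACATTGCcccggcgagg
ME1 (chr6:83431170-83431198, minus strand): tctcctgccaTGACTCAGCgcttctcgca
Measured along the gene, the core's upstream end lay 34 bases before the RefSeq start of GCLM, 99 before that of TXNRD1, 122 before that of GPX2, 137 before that of ME1, 156 before that of CYP4F11, 159 before that of CBR1 and 201 before that of PGD. TXNRD1 and ME1 each held another core near or after the start, and PIR held its core after the start. A match describes letters in this window, not binding, and many known elements of NRF2 targets lie farther upstream than it reaches.

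**Figure D1:**
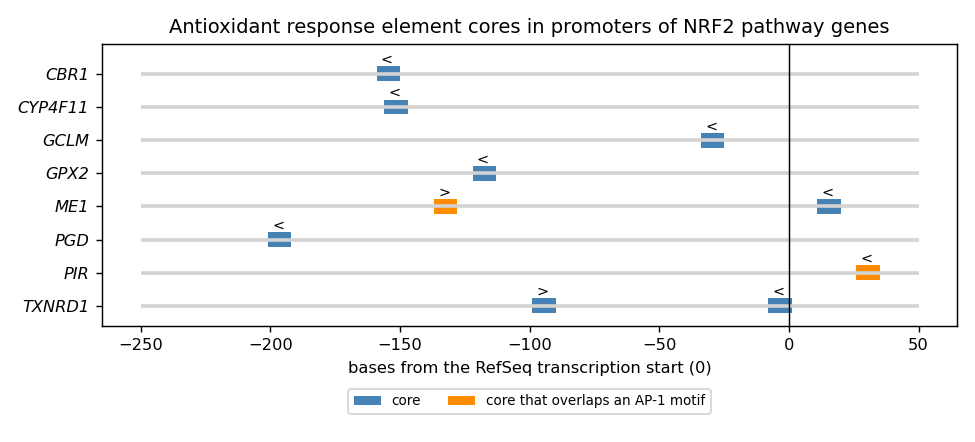
Position of each antioxidant response element core in the 8 promoters that hold one. The x axis is in bases from the RefSeq start, arrowheads show the strand relative to the gene, and orange marks a core that overlaps an AP-1 motif. Cores that begin before the start do so between 201 and 8 bases upstream. ME1 also holds a core after the start, and PIR holds its core only there.

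Each library held 24556848 to 24671296 fragments, and 19610514 to 19989652 of them were assigned to genes. LITATS1 itself (ENSG00000233621, under the symbol ZC3H12A-DT) stood at 14.0, 14.5 and 16.9 CPM with shNT. It stood at 3.79, 3.21 and 3.00 with shLITATS1-1 and 3.33, 3.03 and 2.69 with shLITATS1-2. These levels set the libraries of both LITATS1 hairpins apart from the controls. They cannot tell shLITATS1-1 from shLITATS1-2, whose ranges overlapped. CPM, here and below, scale each library's counts to a common total after TMM, edgeR's correction for library composition. LITATS1 had log2 fold changes of -2.18 (SE 0.11) and -2.32 (SE 0.11) against shNT. Mitochondrially encoded genes took 12.2% ± 0.224 (SD, n = 3) of gene fragments in the shNT libraries, against 10.2% ± 0.123 and 7.97% ± 0.235 in those of shLITATS1-1 and shLITATS1-2. The 5 epithelial markers summed to 4204 to 4407 CPM with shNT, 7499 to 7605 with shLITATS1-1 and 3758 to 4011 with shLITATS1-2. Most of each sum came from KRT8 and KRT18, and the single markers differed. KRT19 rose from 81.1 ± 2.55 CPM with shNT to 110 ± 2.52 with shLITATS1-1 and 162 ± 5.64 with shLITATS1-2 (SD, n = 3). CDH1 stood at 35.9 ± 1.00, 33.8 ± 0.634 and 26.1 ± 1.26 CPM, called lower with shLITATS1-2 alone, and EPCAM passed with neither hairpin. The 6 alveolar type II markers, of the cells from which A549 is thought to derive, summed to 87.3 to 112 CPM in all libraries, with ABCA3 at 85.7 to 109 CPM, while each of the other 5 stood at 1.42 CPM or less. Markers of these other cells stayed low: the 7 fibroblast markers summed to at most 5.89 CPM and the 5 endothelial markers to at most 1.02 in any library. Of single markers, named after their values were seen, the fibroblast gene LUM went from 0.462 ± 0.103 CPM with shNT to 3.60 ± 0.273 with shLITATS1-1 and 0.546 ± 0.223 with shLITATS1-2, and the monocyte gene CD14 from 1.40 ± 0.213 to 2.49 ± 0.646 and 5.36 ± 0.584 (SD, n = 3). The part of the marker differences in the results below was not tested. With mitochondrially encoded genes left out before scaling, the counts of members called were the same in each comparison (11 higher and 29 lower with shLITATS1-1, 1 and 34 with shLITATS1-2).

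With the control hairpin, most of the NRF2 genes were among the most abundant transcripts of these cells. Ranked by CPM per kilobase of exon among 15397 genes, 30 of the 41 stood at or above the 90th percentile and 15 at or above the 99th, and their median lay at percentile 98.1. FTL, the ferritin light chain, was the fifth of all genes at 10534 ± 464 CPM per kb (SD, n = 3). The aldo-keto reductase gene AKR1B10 followed at 2498 ± 35.1 and the aldehyde dehydrogenase gene ALDH1A1 at 2232 ± 38.9. NQO1, the quinone reductase most often used as a readout of NRF2, stood at 684 ± 17.1. The regulators were expressed at lower levels, KEAP1 at 23.8 ± 0.983, NFE2L2 at 20.1 ± 0.673 and MAFG at 19.1 ± 0.666 CPM per kb. SRXN1, encoding sulfiredoxin, was the sole member under the 50th percentile, at 1.45 ± 0.141. Its exons share 2292 of 2698 bases with another annotated gene on the same strand in GENCODE 29, and fragments there can be left uncounted as ambiguous, so its level is uncertain. The baseline is that of cells with a control hairpin, and no KEAP1 wild-type cells were measured.

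**Figure D2:**
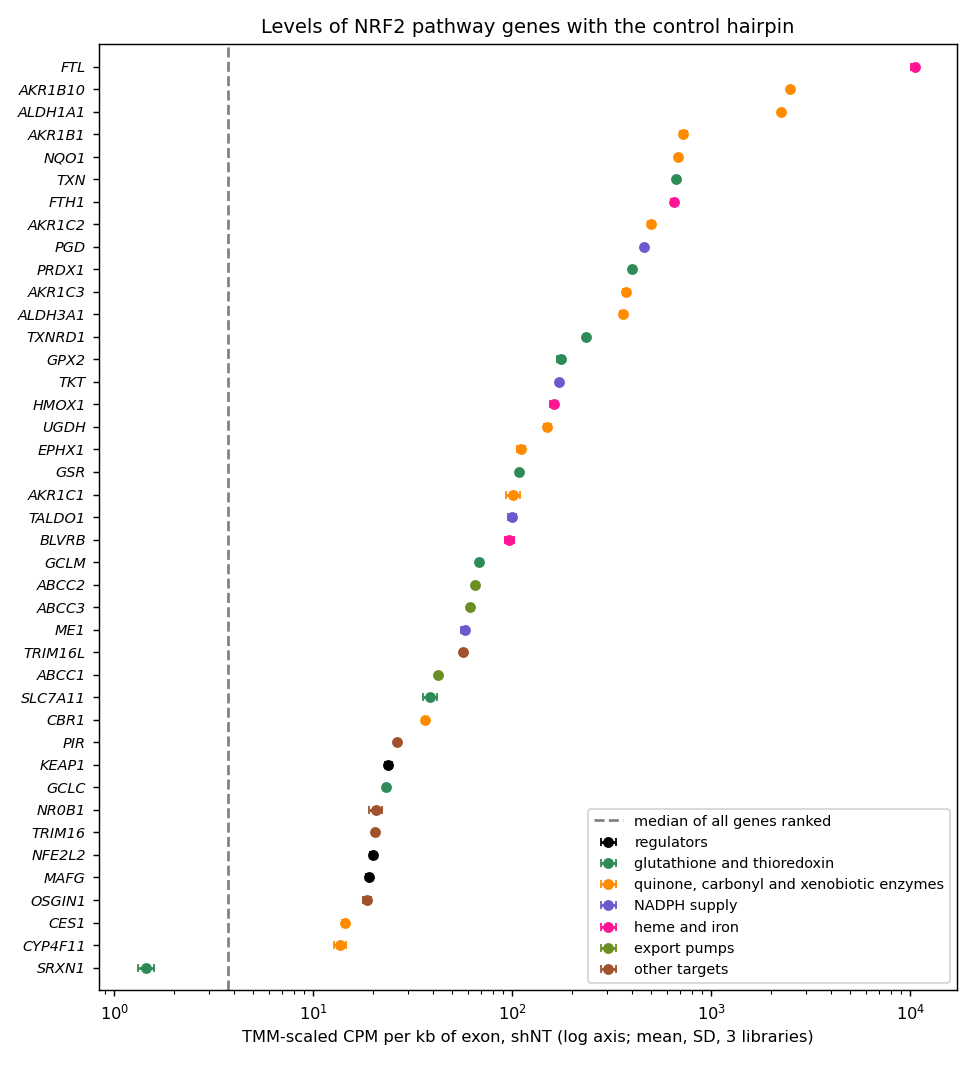
Level of each of the 41 genes with shNT in TMM-scaled CPM per kb of exon (log axis), as the mean and SD of 3 libraries, with colours for the role and the dashed line at the median of all genes ranked, 3.74. All genes but SRXN1 lie to the right of the line.

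Most of the NRF2 genes were lower with both LITATS1 hairpins than with shNT, by different amounts, and the exceptions differed between the hairpins. The 41 genes together took 4.43% ± 0.0911 (SD, n = 3) of all gene fragments in the shNT libraries, against 4.02% ± 0.0238 for shLITATS1-1 and 3.22% ± 0.0270 for shLITATS1-2. The 5 most abundant members made up 57.0%, 57.9% and 52.2% of these fragments, with FTL at 20.4%, 13.4% and 16.6% and ALDH1A1 at 14.0%, 23.6% and 11.6%. With shLITATS1-1, 29 of 41 genes fell, 11 rose and 1 did not pass (edgeR's quasi-likelihood test over 15500 genes, threshold 0.05 after Benjamini-Hochberg adjustment). Over all genes tested, 30.5% fell and 30.5% rose. With shLITATS1-2, 34 fell, 1 rose and 6 did not pass, where 28.9% of all genes fell and 27.8% rose. Most members are abundant. Among the 5861 genes at 32 CPM or more over all libraries, 39.4% fell and 35.9% rose with shLITATS1-1, and 40.4% fell and 31.5% rose with shLITATS1-2, while of the 39 members at that level 27 fell and 11 rose, and 33 fell and 1 rose. The median log2 fold change of the 41 genes was -0.29 with shLITATS1-1 and -0.40 with shLITATS1-2, where the medians of all genes were -0.0070 and -0.0040.

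Most changes were moderate. At least 2-fold decreases were seen with shLITATS1-1 in 3 genes, NR0B1, OSGIN1 and GCLC, against 2.54% of all genes, and in none with shLITATS1-2, where the lowest log2 fold change was -0.87 (2.17% of all genes). No member rose 2-fold with either hairpin, the highest log2 fold changes being 0.63 and 0.093, where 6.14% and 3.78% of all genes did. The libraries of a hairpin and of shNT did not overlap in 38 genes with shLITATS1-1 and in 35 with shLITATS1-2, where this held for 64.2% and 59.6% of all genes. Of the 41 genes, 25 fell with both hairpins (16.0% of all genes) and none rose with both in edgeR's test (15.2%), also 0 at an unadjusted p under 0.05 and 0 in DESeq2. Another 9 were called in opposite directions (9.01%), and 7 were called with 1 hairpin alone (37.1%). The comparisons with shNT share their control libraries. TMM scaling sets the reference point: scaling by library size alone shifted all genes by 0.11 (median, log2) with shLITATS1-2, after which 28 members were called lower and 6 higher there, where 19.1% of all genes were lower and 39.1% higher. With that scaling, 23 members were lower with both hairpins (11.5% of all genes) and 3 higher with both (17.9%).

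**Figure D3:**
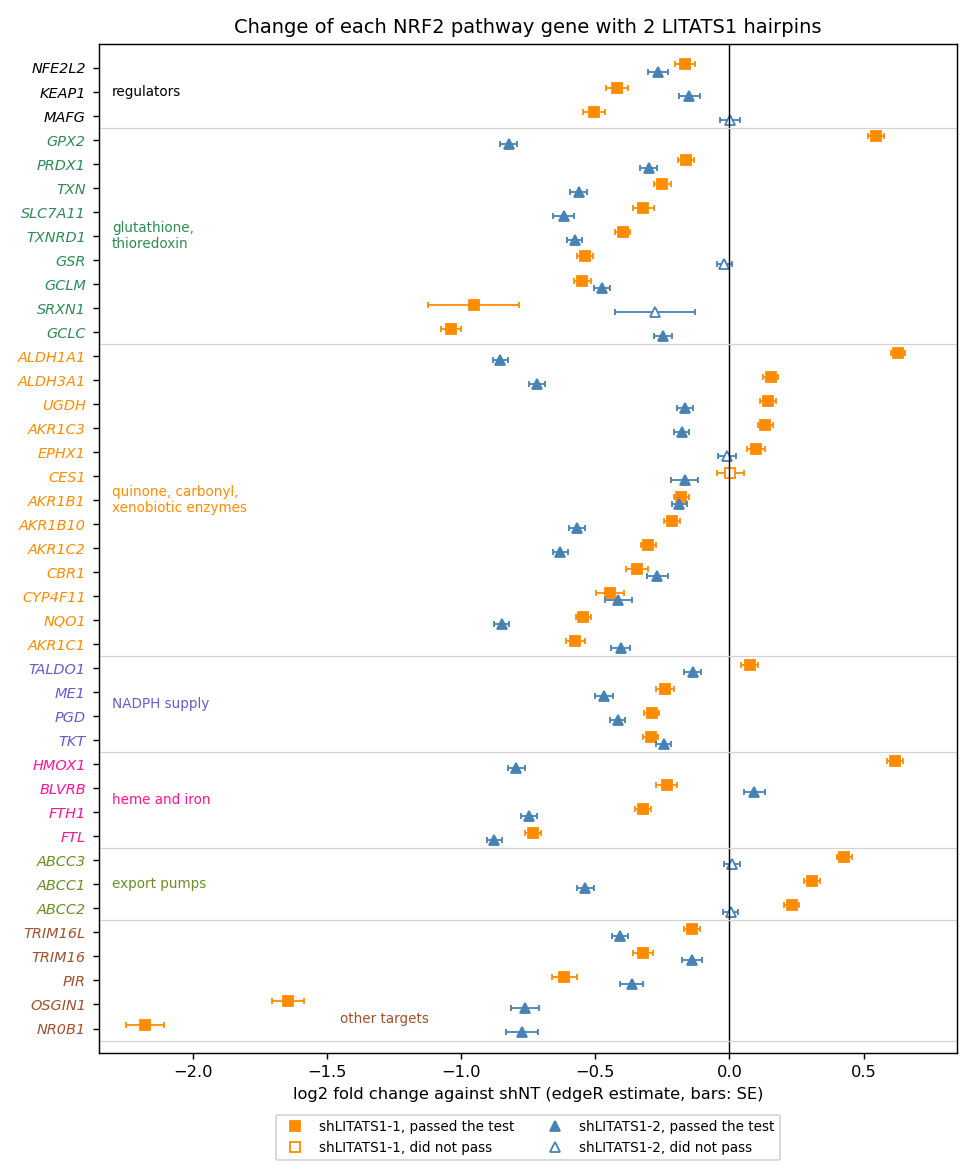
Log2 fold change against shNT of each of the 41 genes, ordered by role, with shLITATS1-1 (squares) and shLITATS1-2 (triangles). Bars are SE, and open symbols did not pass the test. Most symbols lie left of 0, and ALDH1A1, HMOX1 and GPX2 have their symbols on opposite sides.

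Among the regulators, the gene for NRF2 itself and that for KEAP1 fell with both hairpins, NFE2L2 slightly. NFE2L2 (chr2:177227595-177392697, GRCh38) had 125, 117 and 118 CPM with shNT, 101, 111 and 109 with shLITATS1-1 and 102, 99.4 and 97.9 with shLITATS1-2. Its log2 fold changes were -0.17 (SE 0.038, edgeR adjusted p = 0.000116) and -0.27 (SE 0.038, edgeR adjusted p = 5.99e-09). All 6 hairpin libraries lay below the 3 control libraries. KEAP1 (chr19:10486120-10503741) had 85.6, 92.8 and 90.3 CPM with shNT, 66.9, 64.9 and 69.1 with shLITATS1-1 and 81.7, 81.5 and 79.2 with shLITATS1-2. It fell by 0.42 (log2, SE 0.041) with shLITATS1-1 and by 0.15 (log2, SE 0.040) with shLITATS1-2, and the second call was lost under library-size scaling (log2 -0.035). MAFG (chr17:81918270-81927714), the small MAF partner, had 100.5, 103 and 96.0 CPM with shNT, 69.8, 70.6 and 70.6 with shLITATS1-1 and 104, 101 and 94.9 with shLITATS1-2. The shLITATS1-1 libraries were all low, at 70.5% of shNT (log2 fold change -0.51, SE 0.041), while the shLITATS1-2 libraries overlapped the controls (log2 fold change 0.0024, SE 0.039). Under library-size scaling MAFG was called higher with shLITATS1-2 (log2 0.12). The hairpins differed in MAFG by 0.51 (log2, SE 0.040, edgeR adjusted p = 3.03e-18). NFE2L2 and MAFG share exon bases with neighbouring annotated genes, and the strand setting of the counting is not given in the sources used here.

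GCLC, GCLM and SLC7A11, members that serve glutathione synthesis, fell with both hairpins. GSS, the synthetase of the last step and not a member, fell with shLITATS1-1 (log2 fold change -0.21, SE 0.040) and did not pass with shLITATS1-2 (log2 fold change -0.027, SE 0.039). GCLC encodes the catalytic and GCLM the modifier subunit of glutamate-cysteine ligase, which sets the rate of glutathione synthesis. GCLC (chr6:53497341-53616970) had 200.2, 195 and 204 CPM with shNT, 94.2, 99.4 and 97.9 with shLITATS1-1 and 161, 172 and 171 with shLITATS1-2, so all 3 groups were apart and shLITATS1-1 was lowest. It fell by 1.04 (log2, SE 0.036) and 0.25 (log2, SE 0.033) on the log2 scale, and the hairpins differed by 0.79 (log2, SE 0.036, edgeR adjusted p = 5.52e-31). GCLM (chr1:93885205-93909456), with the core 34 bases upstream of its start, had 381, 367 and 361 CPM with shNT, 252, 255 and 251 with shLITATS1-1 and 266, 269 and 264 with shLITATS1-2. It fell to 68.4% and 72.0% of shNT (log2 fold change -0.55, SE 0.030, and -0.47, SE 0.030), so its subunit partner fell further than it with the first hairpin and less far with the second, a difference between genes that was not tested. SLC7A11 (chr4:138164097-138242349), the cystine importer that feeds this pathway, had 406, 354 and 356 CPM with shNT, 289.5, 304 and 300.0 with shLITATS1-1 and 234, 248 and 246 with shLITATS1-2. The order was the reverse of that of GCLC, with shLITATS1-2 lowest (log2 fold change -0.32, SE 0.039, and -0.62, SE 0.039). GSR, the reductase that regenerates glutathione, fell to 68.8% of shNT with shLITATS1-1 (407 ± 2.68 to 280.0 ± 1.26 CPM, SD, n = 3) and stood at 402 ± 5.88 CPM with shLITATS1-2, where it did not pass (log2 fold change -0.019, SE 0.029). Under library-size scaling GSR was called higher with shLITATS1-2 (log2 0.094).

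GPX2, a glutathione peroxidase of epithelia, moved in opposite directions. It (chr14:64939152-64942905) had 254, 258 and 275 CPM with shNT, 388, 378 and 383 with shLITATS1-1 and 149, 146 and 149.6 with shLITATS1-2. All shLITATS1-1 libraries were above and all shLITATS1-2 libraries below the controls. It rose by 0.55 (log2, SE 0.031) with the first hairpin and fell by 0.82 (log2, SE 0.033) with the second. Its promoter, like those of GCLM and TXNRD1, holds the element core.

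Of the 4 members of the thioredoxin branch, which reduces protein disulfides and peroxiredoxins, TXN, TXNRD1 and PRDX1 fell with both hairpins and SRXN1 with shLITATS1-1. The mitochondrial counterparts, not members, moved otherwise: TXNRD2 fell with shLITATS1-1 alone (log2 fold change -0.62, SE 0.065, against -0.097, SE 0.060), and TXN2 rose with it (log2 fold change 0.11, SE 0.043, against 0.0080, SE 0.043). TXNRD1 (chr12:104215779-104350305), thioredoxin reductase, had 1617, 1568 and 1540.2 CPM with shNT, 1177, 1209 and 1204 with shLITATS1-1 and 1031, 1069 and 1069 with shLITATS1-2. The control libraries were highest and the shLITATS1-2 libraries lowest, with log2 fold changes of -0.40 (SE 0.028) and -0.58 (SE 0.028). Its substrate TXN, thioredoxin, fell from 764 ± 25.4 to 642 ± 20.6 and 518 ± 28.0 CPM (SD, n = 3). PRDX1, the peroxiredoxin, fell from 611 ± 14.9 to 546 ± 20.8 and 496 ± 19.5 CPM. SRXN1, which repairs overoxidized peroxiredoxins, had 3.69, 4.35 and 3.70 CPM with shNT, 1.84, 2.11 and 2.11 with shLITATS1-1 and 3.53, 3.37 and 2.79 with shLITATS1-2, from 35 to 85 fragments per library. It fell by 0.95 (log2, SE 0.17) with shLITATS1-1 and did not pass with shLITATS1-2 (log2 fold change -0.28, SE 0.15, edgeR adjusted p = 0.109), although its libraries did not overlap the controls.

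Of 13 quinone, carbonyl and xenobiotic enzymes, 7 fell and 5 rose with shLITATS1-1, where 30.5% of all genes fell and 30.5% rose. With shLITATS1-2, 12 fell and 1 did not pass, where 28.9% of all genes fell. Among genes at 32 CPM or more, 39.4% fell and 35.9% rose with shLITATS1-1, and 40.4% fell with shLITATS1-2. NQO1 (chr16:69706996-69726951), which reduces quinones by NADPH, had 2182, 2205 and 2288 CPM with shNT, 1556, 1494 and 1530.4 with shLITATS1-1 and 1260.0, 1229.5 and 1219 with shLITATS1-2. The groups were apart in the order of controls, first hairpin and second hairpin, at 68.6% and 55.6% of shNT. The log2 fold changes were -0.54 (SE 0.027, edgeR adjusted p = 2.65e-28) and -0.85 (SE 0.028, edgeR adjusted p = 3.42e-39). AKR1B10 (chr7:134527592-134541408), a reductase of retinal and lipid aldehydes, had 4307, 4426 and 4339 CPM with shNT, 3589, 3748 and 3932 with shLITATS1-1 and 2844, 3108 and 2878 with shLITATS1-2. It fell by 0.21 (log2, SE 0.030) and 0.57 (log2, SE 0.030), with no overlap of the 3 groups. AKR1B1, the aldose reductase gene beside it on chromosome 7, fell with both hairpins, to 88.3% and 87.9% of shNT, and its hairpin difference did not pass (log2 difference -0.0070, SE 0.028).

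The AKR1C genes, hydroxysteroid dehydrogenases encoded side by side on chromosome 10, are related copies, alike to different degrees. Fragments that match more than 1 of them may be left uncounted or assigned with error. AKR1C1 had 817, 956 and 883 CPM with shNT, 589.8, 596 and 598 with shLITATS1-1 and 677, 656 and 674 with shLITATS1-2. It fell by 0.57 (log2, SE 0.035) and 0.40 (log2, SE 0.035), to 67.2% and 75.5% of shNT. AKR1C2 fell to 81.1% and 64.6%. AKR1C3 rose to 109.8% with shLITATS1-1 (log2 fold change 0.13, SE 0.029) and fell to 88.4% with shLITATS1-2 (log2 fold change -0.18, SE 0.029), a decrease that did not pass under library-size scaling (log2 -0.064). Summed into 1 feature, the AKR1C1, AKR1C2 and AKR1C3 counts fell with both, by 0.19 (log2, SE 0.027) and 0.45 (log2, SE 0.027).

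Both aldehyde dehydrogenase members rose with shLITATS1-1 and fell with shLITATS1-2. ALDH1A1 (chr9:72900662-73080442), which oxidizes retinal to retinoic acid, had 6408, 6232 and 6437 CPM with shNT, 9809, 9739 and 9914 with shLITATS1-1 and 3518, 3496 and 3549 with shLITATS1-2. The first hairpin brought it to 154% and the second to 55.4% of shNT, and within each group the libraries lay close together. ALDH3A1 (chr17:19737984-19748943), which clears lipid aldehydes, had 1364, 1433 and 1459 CPM with shNT, 1617, 1530.1 and 1588 with shLITATS1-1 and 881, 844 and 864 with shLITATS1-2. It rose by 0.15 (log2, SE 0.028) and fell by 0.72 (log2, SE 0.029). Of 3 further aldehyde dehydrogenases on the list of other pathway genes, ALDH7A1 had log2 fold changes of 0.27 and -0.27, ALDH3A2 of -0.37 and -0.12, and ALDH9A1 of 0.036, which did not pass, and 0.12.

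The other enzymes of this role changed less. UGDH, which makes UDP-glucuronate for conjugation, rose to 111% of shNT with shLITATS1-1 and fell to 89.1% with shLITATS1-2, the latter not passing under library-size scaling (log2 -0.053). CBR1, a carbonyl reductase, fell to 78.8% and 83.0%, and CYP4F11, a fatty acid hydroxylase, to 73.5% and 75.1%. Both of these promoters hold the element core. CES1, a carboxylesterase, stood at 42.4 ± 1.65, 42.5 ± 1.68 and 37.8 ± 1.47 CPM (SD, n = 3) with shNT, shLITATS1-1 and shLITATS1-2, and fell with the second hairpin alone (log2 fold change -0.17, SE 0.052), not under library-size scaling (log2 -0.054). EPHX1, microsomal epoxide hydrolase, rose by 0.099 (log2, SE 0.034) with shLITATS1-1, but its libraries overlapped the controls. That call was lost when shNT replicate 1 was left out (log2 0.067), and also without replicate 1 (log2 0.071) or 3 (log2 0.083) of shLITATS1-1.

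Genes that supply NADPH, the electron donor of the reductases above, fell with both hairpins in 3 of 4 cases (16.0% of all genes). PGD, the second dehydrogenase of the pentose phosphate pathway, fell from 1367 ± 18.2 to 1119 ± 4.54 and 1024 ± 11.2 CPM (SD, n = 3). ME1, malic enzyme, fell to 84.7% and 72.3% of shNT, and TKT, transketolase, to 81.6% and 84.4%. TALDO1, transaldolase, fell to 91.0% with shLITATS1-2 (log2 fold change -0.14, SE 0.032), which did not pass under library-size scaling (log2 -0.023). Its rise with shLITATS1-1 was small (log2 fold change 0.075, SE 0.032, edgeR adjusted p = 0.0333). That call was lost with library-size scaling (log2 0.058), with no filter (log2 0.068) and when a single library was left out, namely replicate 1 of shNT (log2 0.044), replicate 1 (log2 0.064) or 3 (log2 0.076) of shLITATS1-1, or replicate 2 of shLITATS1-2 (log2 0.073).

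In heme and iron handling, both ferritin genes fell with both hairpins while HMOX1 moved in opposite directions. FTL (chr19:48965301-48966878), the ferritin light chain, had 8782, 9430.4 and 9535 CPM with shNT, 5707, 5588 and 5423 with shLITATS1-1 and 5186, 5082 and 4862 with shLITATS1-2. The controls lay far above all hairpin libraries, and the remaining level was 60.3% and 54.5% of shNT (log2 fold change -0.73, SE 0.029, and -0.87, SE 0.029). FTH1, the heavy chain, fell to 80.0% and 59.7%. Both have many processed pseudogenes, which held 0.447% of the fragments counted for FTL and its copies and 1.66% for FTH1 and its copies. These shares cover only fragments assigned to a gene. FTH1 also shares 1267 of its 2030 exon bases with BEST1 on the opposite strand. As the strand setting is not given, fragments there may have been left uncounted, and its level is uncertain. HMOX1 (chr22:35380361-35394214), heme oxygenase, releases iron from heme and is also repressed by BACH1. It had 368, 396 and 399 CPM with shNT, 589, 585 and 611 with shLITATS1-1 and 221, 229 and 221 with shLITATS1-2. Its groups did not overlap, with shLITATS1-1 highest and shLITATS1-2 lowest (log2 fold change 0.62, SE 0.030, edgeR adjusted p = 4.71e-29, and -0.79, SE 0.031, edgeR adjusted p = 3.47e-34). BLVRB, a biliverdin reductase that also reduces flavins, had 154, 169.9 and 166 CPM with shNT, 147, 133 and 137 with shLITATS1-1 and 185, 171 and 167 with shLITATS1-2. It fell by 0.23 (log2, SE 0.040) with shLITATS1-1. It was the sole member called higher with shLITATS1-2 (log2 fold change 0.093, SE 0.039, edgeR adjusted p = 0.0386), with libraries that overlapped the controls. The latter call was lost in DESeq2 (log2 0.094), after GC correction (log2 0.054) and without shNT replicate 1 (log2 0.058) or shLITATS1-2 replicate 1 (log2 0.047).

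Another 3 members encode export pumps of the ABCC family, which carry glutathione and glucuronide conjugates out of the cell. All 3 rose with shLITATS1-1 (30.5% of all genes). With shLITATS1-2 ABCC1 fell and the others did not pass. ABCC1 (chr16:15949577-16143074) had 322, 329.5 and 315 CPM with shNT, 395, 402 and 400.3 with shLITATS1-1 and 222, 219 and 225 with shLITATS1-2. It rose by 0.31 (log2, SE 0.030) and fell by 0.54 (log2, SE 0.030), with all groups apart. ABCC3 (chr17:50634777-50692252) had 584, 595 and 585 CPM with shNT, 801, 769 and 805 with shLITATS1-1 and 588, 584 and 604 with shLITATS1-2. The first hairpin raised it by 0.43 (log2, SE 0.028), and the second left it among the controls (log2 fold change 0.0096, SE 0.028). ABCC2 (chr10:99782640-99852594) had 518, 505 and 514 CPM with shNT, 590.5, 605 and 610.4 with shLITATS1-1 and 508, 512 and 521 with shLITATS1-2, a rise of 0.23 (log2, SE 0.028) with shLITATS1-1 and a log2 fold change of 0.0046 (log2, SE 0.028) with shLITATS1-2. Under library-size scaling ABCC2 and ABCC3 were called higher with shLITATS1-2 too, each by 0.12 (log2). Of the other pumps, ABCC4 and ABCC5 also rose with shLITATS1-1 (log2 fold changes 0.24 and 0.45), and ABCG2 fell (log2 fold change -0.73). With shLITATS1-2 none of these 3 rose, 2 fell and 1 did not pass (log2 fold changes from -0.16 to -0.015).

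The remaining 5 targets all fell with both hairpins, where 16.0% of all genes did. OSGIN1 and NR0B1 showed the largest decreases of the 41 genes with shLITATS1-1. NR0B1 (chrX:30304206-30309598), an orphan nuclear receptor that is strongly expressed in KEAP1-mutant lung cancer cells, had 41.4, 47.7 and 47.4 CPM with shNT, 11.4, 9.27 and 9.48 with shLITATS1-1 and 26.8, 27.9 and 25.2 with shLITATS1-2. Its remaining level was 22.1% and 58.5% of shNT, with log2 fold changes of -2.18 (SE 0.072, edgeR adjusted p = 5.99e-38) and -0.77 (SE 0.059, edgeR adjusted p = 1.01e-18). OSGIN1 (chr16:83948282-83966332), an oxidative stress-induced growth inhibitor, had 61.0, 66.0 and 66.2 CPM with shNT, 20.5, 21.8 and 19.5 with shLITATS1-1 and 41.9, 35.8 and 36.2 with shLITATS1-2. It fell by 1.64 (log2, SE 0.058) and 0.76 (log2, SE 0.052), again with shLITATS1-1 lowest and no overlap. PIR (chrX:15384799-15493564), encoding the iron-binding nuclear protein pirin, had 65.9, 66.6 and 66.2 CPM with shNT, 43.5, 42.5 and 43.8 with shLITATS1-1 and 50.9, 51.8 and 51.7 with shLITATS1-2. It fell by 0.61 (log2, SE 0.046) and 0.36 (log2, SE 0.044). TRIM16 fell to 80.0% and 90.8% of shNT, the second not passing under library-size scaling (log2 -0.026), and its near copy TRIM16L to 90.8% and 75.4%. Summed, the fragments of this pair fell by 0.20 (log2, SE 0.029) and 0.32 (log2, SE 0.029).

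**Figure D4:**
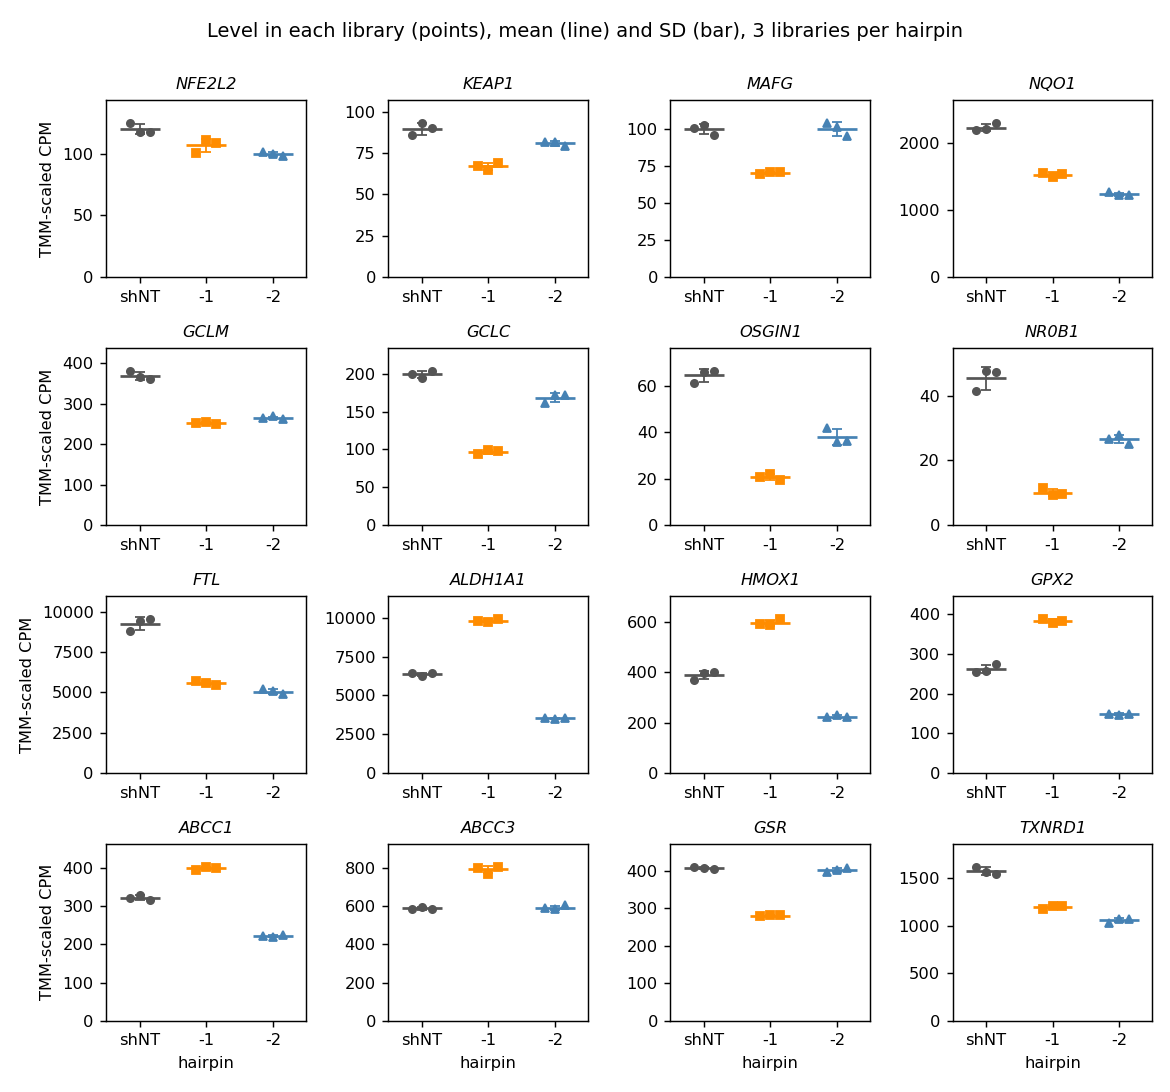
TMM-scaled CPM of 16 of the genes in each library (points), with the mean (line) and SD (bar) of 3 libraries with shNT, shLITATS1-1 (-1) and shLITATS1-2 (-2); every y axis starts at 0. NQO1, GCLM, FTL and TXNRD1 are lower with both hairpins, while ALDH1A1, HMOX1, GPX2 and ABCC1 are higher with the first and lower with the second.

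The direct contrast of the hairpins asks where their effects on these genes differ. With shLITATS1-2 relative to shLITATS1-1, 25 of 41 genes were lower, 12 were higher and 4 did not pass in edgeR's test, where 30.2% of all genes were lower and 30.7% higher. Of the 39 members at 32 CPM or more, 25 were lower and 10 higher, against 37.5% and 35.7% of genes at that level. Library-size scaling gave 18 lower and 16 higher, where 21.2% of all genes were lower and 44.6% higher. The libraries of the hairpins did not overlap in 35 of the 41 genes, and in 64.2% of all genes. At least 2-fold differences were found in 3 genes that were lower (5.27% of all genes) and 1 that was higher (3.05%). The lower ones were ALDH1A1 (log2 difference -1.48, SE 0.027), HMOX1 (log2 difference -1.41, SE 0.031) and GPX2 (log2 difference -1.37, SE 0.032), followed by ALDH3A1 (log2 difference -0.87, SE 0.029). The higher one was NR0B1 (log2 difference 1.40, SE 0.078), followed by OSGIN1 (log2 difference 0.88, SE 0.062), GCLC (log2 difference 0.79, SE 0.036) and SRXN1 (log2 difference 0.68, SE 0.17). NR0B1, OSGIN1 and GCLC, which fell with both hairpins, thus fell further with the first, while NQO1 (log2 difference -0.30, SE 0.028), SLC7A11 (log2 difference -0.30, SE 0.039), AKR1B10 (log2 difference -0.35, SE 0.030) and FTH1 (log2 difference -0.42, SE 0.030) fell further with the second. LITATS1 itself had a log2 difference between the hairpins of -0.14 (SE 0.16, edgeR adjusted p = 0.438), which did not pass.

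The other genes of the pathway moved in both directions. Of 85 further regulators and reported targets with a row, 79 passed the filter, of which 33 fell (41.8%, against 30.5% of all genes) and 25 rose (31.6%, against 30.5%) with shLITATS1-1. With shLITATS1-2, 36 fell (45.6%, against 28.9%) and 13 rose (16.5%, against 27.8%). Under library-size scaling the latter became 21 and 26, where 19.1% and 39.1% of all genes were called. Between hairpins 29 were lower with shLITATS1-2 (36.7%, against 30.2%) and 32 higher (40.5%, against 30.7%), or 23 and 42 under library-size scaling, where the shares of all genes were 21.2% and 44.6%. Their median log2 fold changes against shNT were -0.075 and -0.10. With both hairpins 18 fell (22.8%, against 16.0%) and 6 rose (7.59%, against 15.2%), and 15 were called in opposite directions (19.0%, against 9.01%). SQSTM1, the autophagy adaptor that sequesters KEAP1 and is itself induced by NRF2, fell from 1220.5 ± 30.7 CPM (SD, n = 3) to 495 ± 1.30 and 659.9 ± 6.36 (log2 fold change -1.30, SE 0.028, and -0.89, SE 0.028). The serine synthesis gene PHGDH fell by 1.32 (log2, SE 0.067) and 0.77 (log2, SE 0.061), PTGR1, a reductase of prostaglandins and alkenals, by 0.44 and 0.61 (log2), and the taurine transporter gene SLC6A6 to 45.1% and 28.7% of shNT.

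Among those that rose with both hairpins, TXNIP, an inhibitor of thioredoxin, went from 0.513 ± 0.102 CPM (SD, n = 3) to 1.21 ± 0.292 and 1.97 ± 0.169, all low levels. NFE2L3, a relative of NFE2L2, rose by 0.44 (log2, SE 0.064) and 0.35 (log2, SE 0.064), CYP2S1 by 0.21 and 0.38 (log2) and the glutathione transferase gene GSTO1 by 0.23 and 0.20 (log2). The hairpins differed most in CHAC1, which degrades glutathione (log2 difference 1.44, SE 0.14), in SLC40A1, the iron exporter ferroportin (log2 difference -1.31, SE 0.048), in the urea cycle gene CPS1 (log2 difference -1.08, SE 0.048) and in UGT1A6 (log2 difference -1.07, SE 0.33). SLC40A1 rose from 37.0 ± 0.539 to 77.2 ± 0.430 CPM with shLITATS1-1 and fell to 31.1 ± 1.63 with shLITATS1-2, the same directions as HMOX1. UGT1A6 stood at 0.393 ± 0.119 CPM with shNT and shares exons with the other UGT1A genes, so its counts are uncertain.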

How the data were processed

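RNA libraries of 9 A549 samples, 3 per hairpin, were grouped by their titles. The authors deposited 1 table of raw fragment counts per gene, unnormalized. The build was GRCh38 and the tools were HTSeq 0.12.4, STAR 2.7.5a, cutadapt 2.10 and FastQC, per the submitters' processing notes. Not given in the sources used here are the annotation release, the strand setting and the treatment of overlaps. Counter lines that name no gene, 19.0% to 20.3% of fragments, were left out.

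Symbols came from a table of gene identifiers, and positions and exon lengths from GENCODE 29 on GRCh38. Genes were kept by filterByExpr (minimum count 10), which left 15500. All 9 libraries entered 1 edgeR 4.0.16 quasi-likelihood fit (R 4.3.3, TMM, robust, 6 residual degrees of freedom), tested two-sided for each pair of groups with Benjamini-Hochberg adjustment over all genes and a threshold of 0.05. The common biological coefficient of variation was 2.71%. Levels compared between genes are per kb of exon. Replicate pairs differed by more than sampling noise (chi-square per degree of freedom 1.47 to 2.72). The fit was tested on simulated counts in which few genes changed, up and down alike, in 1 group. That setting differs from these data, where most genes were called, and does not test the scaling.

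Genes given with every library are 10 fixed members (NFE2L2, KEAP1, MAFG, NQO1, GCLM, GCLC, TXNRD1, SLC7A11, HMOX1 and AKR1B10) and the 6 members with the largest change in each direction per hairpin and the 4 between hairpins, among those that passed. Of the other pathway genes, the 4 with the largest shared change in each direction and the 4 largest differences between hairpins are named. GSS, TXNRD2, TXN2, further ALDH and ABC genes, LUM and CD14 were named after their values were seen. The members and lists were chosen with earlier results of these data known. Alternatives were DESeq2 1.42.0, its size factors in edgeR, library-size scaling, no filter, a filter of 50, the replicate number as a block, the 6 libraries compared, a threshold of 0.01, a 2-fold minimum, omission of mitochondrially encoded genes and of each library, and summed copies. A correction for GC content and another for gene length were chosen after seeing the data. The immune marker list is not reported here.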

Additional observations from a re-analysis of the deposited data

Results flagged for a closer look

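In 9 of the 41 genes the effect of the hairpins differed in sign: each was called with both hairpins against shNT, in opposite directions, and the difference between the hairpins passed edgeR's quasi-likelihood test. Over all genes tested, 9.01% were called in opposite directions against shNT. The log2 difference, shLITATS1-2 minus shLITATS1-1, was -1.48 for ALDH1A1, -1.41 for HMOX1, -1.37 for GPX2, -0.87 for ALDH3A1 and -0.85 for ABCC1, and these 5 kept all their calls and directions in the 20 alternatives other than the 2-fold minimum. It was -0.31 for AKR1C3, -0.31 for UGDH, -0.21 for TALDO1 and 0.33 for BLVRB, whose opposite directions rested on calls that some alternatives lost. Groups of 3 libraries were too small for a check of single outlying libraries.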

How the results depend on the processing

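Depth was near equal between libraries and limits mainly SRXN1, the least abundant member. Of the 25 members lower with both hairpins, 23 kept both calls in the 20 alternatives other than the 2-fold minimum; KEAP1 and TRIM16 lost theirs with shLITATS1-2 under library-size scaling. The number of members kept in all of them was 38 with shLITATS1-1, 29 with shLITATS1-2 and 29 between hairpins. With a 2-fold minimum, 0 members were higher and 3 lower with shLITATS1-1, 0 and 0 with shLITATS1-2, 1 and 3 between hairpins and 0 lower with both, since most changes were smaller. Among other pathway genes it left 3 higher and 4 lower with shLITATS1-1, 1 and 1 with shLITATS1-2, and 1 and 3 between hairpins.

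The single increase with shLITATS1-2 became 0 in DESeq2, with the replicate block, after GC correction and at a threshold of 0.01, and 6 under library-size scaling, which also gave 3 members higher with both hairpins and, among other pathway genes with shLITATS1-2, 26 higher and 21 lower. Leaving out 1 library gave 9 to 11 members higher and 29 to 29 lower with shLITATS1-1, 0 to 1 and 34 to 34 with shLITATS1-2, 11 to 13 and 23 to 25 between hairpins, and 0 to 0 higher and 25 to 25 lower with both. For other pathway genes it gave 21 to 25 higher and 29 to 34 lower with shLITATS1-1, 12 to 15 and 32 to 36 with shLITATS1-2, and 29 to 33 and 26 to 29 between hairpins. The log2 fold change of LITATS1 lay between -2.28 and -2.10 with shLITATS1-1, -2.40 and -2.24 with shLITATS1-2 and -0.22 and -0.045 between hairpins.

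Signs turned in 5 member values with shLITATS1-1, 14 with shLITATS1-2 and 11 between hairpins over all alternatives, and the cause was not tested. Values are log2 fold changes. With shLITATS1-1, CES1 stood at -0.014 under library-size scaling, -0.0036 with no filter, -0.019 without shNT replicate 1 and -0.029 without shLITATS1-1 replicate 2, and from -0.029 to 0.031 over all omitted libraries. With shLITATS1-2, MAFG stood at -0.00073 with no filter, -0.027 without shNT replicate 3, -0.025 and -0.0090 without shLITATS1-2 replicate 1 or 2 and -0.033 after GC correction, reached 0.038 over the omitted libraries and was called higher under library-size scaling (0.12). GSR stood at 0.094 and EPHX1 at 0.105 under library-size scaling, and EPHX1 at 0.0095 with a minimum count of 50, 0.020 without shNT replicate 3 and 0.011 without shLITATS1-2 replicate 2 (lowest over omitted libraries -0.038). ABCC2 stood at -0.0078 without shNT replicate 2 and -0.0071 without shLITATS1-2 replicate 3, and ABCC3 at -0.0062 without the latter and -0.020 after GC correction (highest over omitted libraries 0.019 for ABCC2 and 0.018 for ABCC3). Between hairpins, library-size scaling gave 0.030 for NFE2L2, 0.12 for AKR1B1, 0.024 for EPHX1 and 0.0042 for PGD. AKR1B1 stood at 0.0017 without shLITATS1-1 replicate 1 and 0.0048 and 0.0069 without shLITATS1-2 replicate 2 or 3 (lowest -0.030). GC correction gave -0.016 for CYP4F11 and -0.025 for TKT. Summing copies, by construction, gave the family's value in place of the member's: -0.19 for AKR1C3 with shLITATS1-1, and between hairpins -0.25 for AKR1C1 and -0.12 for TRIM16.

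Groups share replicate numbers, but same-numbered libraries did not deviate together (r from -0.19 to 0.079 over 9 pairs), so the number was not taken as a pairing. With the replicate block, 10 members were higher and 29 lower with shLITATS1-1, 0 and 34 with shLITATS1-2, and 11 and 25 between hairpins. BLVRB (log2 0.091) with shLITATS1-2, TALDO1 (log2 0.076) with shLITATS1-1 and GCLM (log2 0.073) between hairpins lost their calls. The call of GCLM between hairpins was lost in 10 of the 20 alternatives other than the 2-fold minimum.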
